A study of Zea mays with 9 samples.

Results

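The genes described here are 6 maize genes of antioxidant defence. They are sod4 (GRMZM2G169890) and MSRB5.1 (GRMZM2G577677) of a duplicated piece of chromosome 1, the sod4 paralog sod4a (GRMZM2G058522, chromosome 9), and the catalase genes cat1 (GRMZM2G088212, chromosome 5), cat2 (GRMZM2G090568, chromosome 1) and cat3 (GRMZM2G079348). They are 6 of 39656 gene identifiers in the count table, and all 6 were among the 22544 genes with enough counts to be tested. The genes were picked by identifier. The choice of sod4 used its level in P1-ww714 relative to B73, which exceeded the number of gene copies, so the levels of sod4 and of its segment neighbour MSRB5.1 are given as descriptions with no test. GRMZM2G079348 was listed as cat3 when the genes were chosen, and the reference gene table did not match that identifier.

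RNA was sequenced from seedlings of 3 genotypes, with 3 libraries each. All plants were 14 days old and grew in long days, lit for 15 h and dark for 9 h. P1-ww714 carries an allele of p1, a chromosome 1 gene for a MYB regulator of red kernel pigment, and its label does not state that the allele is homozygous. P1-ww714/B73 is the heterozygote with the inbred line B73, and B73 itself is the reference line. That P1-ww714 brings a tandem duplication ending at p1 is background knowledge of the allele and not stated in the labels. With it, P1-ww714, P1-ww714/B73 and B73 hold 4, 3 and 2 doses of the segment, and the study asks how transcript levels follow these doses. The labels do not say whether replicates were separate plants, so p-values measure the spread between these libraries, which may be technical.

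Superoxide dismutases turn superoxide, a by-product of photosynthesis and respiration, into hydrogen peroxide and oxygen. Catalases then split hydrogen peroxide into water and oxygen, while ascorbate peroxidases and peroxiredoxins reduce it with ascorbate or thiols. Methionine sulfoxide reductases repair oxidized methionine in proteins, those of the B type acting on the R form of the sulfoxide. In maize, sod4 and sod4a encode closely related cytosolic copper-zinc enzymes. Catalase 2 is known from bundle sheath cells of green leaves, catalase 3 from mesophyll cells, and transcription of the catalase 3 gene is known to follow a daily rhythm.

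Totals ran from 9486044 to 16189684 counts per library, and levels are CPM, counts divided by the library total after TMM, a correction for library composition, and set to a common scale. The leaf markers were present in every library. Both matched mesophyll genes, pep1 and pdk1, summed to 27801 to 34321 CPM in P1-ww714, 28140 to 37270 CPM in P1-ww714/B73 and 26806 to 30909 CPM in B73. The 3 matched bundle sheath genes, ssu1, me3 and rca1, summed to 6091 to 8205 CPM in P1-ww714, 6814 to 8562 CPM in P1-ww714/B73 and 6007 to 8834 CPM in B73. Among libraries that stood apart, P1-ww714/B73 replicate 1 had 387 CPM over 9 histone genes, against 644 to 878 CPM in P1-ww714 and 650 to 861 CPM in B73. Its other 2 libraries lay at up to 871 CPM. The 14 heat shock genes summed to 2361, 2193 and 2776 CPM in P1-ww714, 1655, 2290 and 2401 CPM in P1-ww714/B73 and 1917, 1911 and 2103 CPM in B73. In this sum all P1-ww714 libraries lay above all B73 libraries, with P1-ww714 replicate 3 the highest. Its largest members were hsp70-4 (886 to 1435 CPM over all libraries) and HSP90-2 (547 to 756 CPM), so the order need not hold for each gene. The part of heat shock genes in the differences between P1-ww714 and B73 was not tested. No marker gene was at 0 in any library.

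The superoxide dismutase gene sod4 stood highest in P1-ww714, lower in the heterozygote and lowest in B73. Its level was 266.6, 237.4 and 284.7 CPM in the P1-ww714 libraries, 162.1, 174.9 and 166.4 CPM in P1-ww714/B73 and 88.0, 100.1 and 80.0 CPM in B73. The 3 genotypes did not overlap at any library. P1-ww714 averaged 262.9 ± 23.9 CPM, P1-ww714/B73 167.8 ± 6.47 CPM and B73 89.4 ± 10.2 CPM (SD, n = 3 each). The log2 fold change of P1-ww714 over B73 was 1.56 with a standard error of 0.12, beside 1 from the doses alone. For P1-ww714/B73 over B73 it was 0.91 ± 0.12 (SE), beside 0.58 from the doses. P1-ww714 over P1-ww714/B73 gave 0.65 ± 0.11 (SE), beside 0.42 from the doses. The fits against B73 share the B73 libraries. Libraries that do not overlap are not rare in these data, since 6.86% of all tested genes had every P1-ww714 library above every B73 library, 3.47% had every P1-ww714/B73 library above every B73 library and 3.73% every P1-ww714 library above every P1-ww714/B73 library. The reverse order held for 6.42%, 3.37% and 3.05%. In seedling RNA, fewer cells of a type and less RNA per cell cannot be told apart.

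MSRB5.1, a methionine sulfoxide reductase of the B type, showed the same order of genotypes. Its level was 132.8, 121.3 and 141.6 CPM in P1-ww714, 108.1, 97.0 and 99.4 CPM in P1-ww714/B73 and 52.4, 59.4 and 51.0 CPM in B73. Here too the genotypes did not overlap, though the gap between P1-ww714 and the heterozygote was narrower than for sod4. P1-ww714 averaged 131.9 ± 10.2 CPM, P1-ww714/B73 101.5 ± 5.84 CPM and B73 54.3 ± 4.50 CPM (SD, n = 3 each). The log2 fold change was 1.28 ± 0.11 (SE) for P1-ww714 over B73 and 0.90 ± 0.11 for P1-ww714/B73 over B73. P1-ww714 over P1-ww714/B73 gave 0.38 ± 0.10 (SE), beside 0.42 from the doses.

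**Figure D1:**
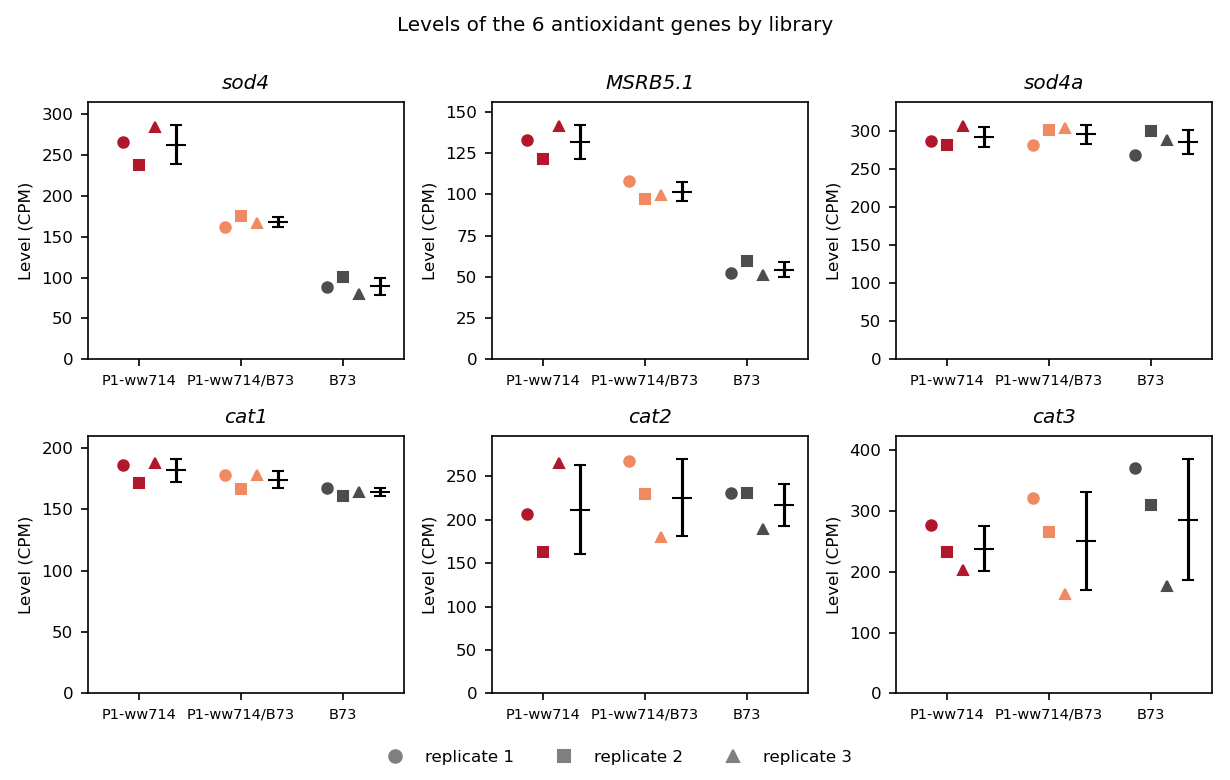
Level in CPM (vertical axis, from 0) of each of the 6 genes in every library, by genotype; the point shape gives the replicate number and the bars show the mean ± SD of 3 libraries. sod4 and MSRB5.1 separate the genotypes, sod4a and cat1 lie close together, and cat2 and cat3 vary within each genotype.

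Divided by dose, the pair parted. The level of sod4 per dose of the segment was 65.7 ± 5.97 CPM in P1-ww714, 55.9 ± 2.16 CPM in P1-ww714/B73 and 44.7 ± 5.08 CPM in B73 (SD, n = 3 each). Relative to B73, a copy of sod4 thus gave 1.47 times as much transcript in P1-ww714 and 1.25 times in the heterozygote, if the copies are taken as equal. MSRB5.1 per dose was at 33.0 ± 2.55 CPM in P1-ww714, 33.8 ± 1.95 CPM in P1-ww714/B73 and 27.1 ± 2.25 CPM in B73 (SD, n = 3 each). Its level per dose was thus 1.22 times that of B73 in P1-ww714 and 1.25 times in the heterozygote, values that lay within each other's spread. The read count of MSRB5.1 relative to that of sod4, a ratio that does not depend on scaling of the libraries, was 0.502 ± 0.00757 in P1-ww714, 0.606 ± 0.0565 in P1-ww714/B73 and 0.609 ± 0.0254 in B73 (SD, n = 3 each). All 3 P1-ww714 libraries lay below the other 6 in this ratio. Because sod4 was chosen for a level in P1-ww714 beyond its doses, that choice favoured a low ratio there. The level per dose and the ratio are thus descriptions.

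The heterozygote can be set against the middle of P1-ww714 and B73 on the log2 scale, a contrast that is orthogonal to P1-ww714 against B73. Doses that add give 0.08 there. sod4 lay 0.13 above the middle (SE 0.10) and MSRB5.1 0.26 above it (SE 0.09). Over all genes, edgeR (quasi-likelihood test, p-values adjusted by Benjamini-Hochberg) called 0 (0%) in this contrast, though the unadjusted p of 235 was below 0.05, and with DESeq2 the number called was 2.

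The paralog sod4a, on another chromosome, did not follow sod4. Its level was 287.2, 281.9 and 307.1 CPM in P1-ww714, 281.7, 301.5 and 304.3 CPM in P1-ww714/B73 and 268.7, 300.1 and 288.1 CPM in B73. The genotypes overlapped throughout. The fold of P1-ww714 over B73 was 1.02 with a 95% interval of 0.879 to 1.19, and that of P1-ww714/B73 over B73 was 1.04 (0.891 to 1.20), with edgeR adjusted p = 0.996 and 0.99999. The read count of sod4 relative to sod4a in the same library was 0.928, 0.842 and 0.927 in P1-ww714, 0.576, 0.580 and 0.547 in P1-ww714/B73 and 0.327, 0.334 and 0.278 in B73. The reads of the 2 genes together came to 555.0 ± 36.3 CPM in P1-ww714, 463.6 ± 17.3 CPM in P1-ww714/B73 and 375.0 ± 22.6 CPM in B73 (SD, n = 3 each). The labels do not say how reads shared by the paralogs were counted, and the split between them is uncertain.

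**Figure D2:**
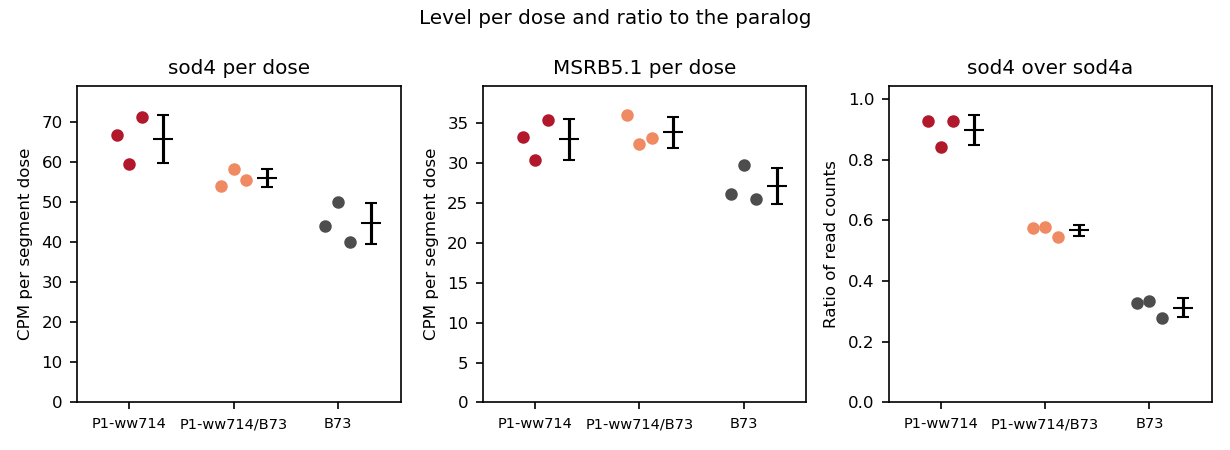
Left and middle, level of sod4 and MSRB5.1 in CPM divided by 4, 3 and 2 segment doses; right, read count of sod4 over that of sod4a in the same library; points are libraries and bars the mean ± SD of 3. sod4 per dose is highest in P1-ww714 (65.7 CPM) and lowest in B73 (44.7 CPM), MSRB5.1 per dose is close in P1-ww714 and P1-ww714/B73 (33.0 and 33.8 CPM), and the ratio averages 0.899 in P1-ww714, 0.567 in P1-ww714/B73 and 0.313 in B73.

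None of the 3 catalase genes passed the edgeR test in any comparison, beside 0.776% of all genes called in P1-ww714 against B73 (0.652% higher, 0.124% lower). For P1-ww714/B73 against B73 the background was 0.111%, each of these genes being higher. cat1 was the steadiest of them, with 185.5, 171.0 and 187.8 CPM in P1-ww714, 178.0, 166.1 and 177.8 CPM in P1-ww714/B73 and 167.1, 160.5 and 163.9 CPM in B73. Every P1-ww714 library lay above every B73 library, an order that 6.86% of all tested genes showed, and the heterozygote overlapped both. The fold of P1-ww714 over B73 was 1.11 (95% interval 0.963 to 1.27, adjusted p = 0.872), and that of P1-ww714/B73 over B73 was 1.06 (0.923 to 1.22, adjusted p = 0.99999).

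cat2, which lies on chromosome 1 outside the segment, spread widely within P1-ww714 and within the heterozygote. Its level was 206.6, 162.8 and 265.6 CPM in P1-ww714, 267.5, 229.7 and 179.6 CPM in P1-ww714/B73 and 230.9, 230.5 and 189.2 CPM in B73. The highest values came from P1-ww714/B73 replicate 1 and P1-ww714 replicate 3, the libraries that stood apart in histone and heat shock genes, and whether these are linked was not tested. The fold was 0.976 (95% interval 0.729 to 1.31) for P1-ww714 over B73 and 1.04 (0.777 to 1.39) for P1-ww714/B73 over B73, with edgeR adjusted p = 0.997 and 0.99999.

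cat3 spread widely within each genotype, and the genotypes overlapped. Its level was 276.8, 231.6 and 203.4 CPM in P1-ww714 replicates 1, 2 and 3, 321.5, 265.5 and 162.6 CPM in P1-ww714/B73 replicates 1, 2 and 3, and 370.7, 308.7 and 176.5 CPM in B73 replicates 1, 2 and 3. In each genotype the library numbered 1 was the highest and the library numbered 3 the lowest. The labels do not say whether a number marks a shared day, hour or batch. The coefficient of variation was 15.6% in P1-ww714, 32.3% in P1-ww714/B73 and 34.8% in B73, against 4.55%, 4.16% and 5.55% for sod4a. The fold was 0.831 (95% interval 0.539 to 1.28) for P1-ww714 over B73 and 0.876 (0.568 to 1.35) for P1-ww714/B73 over B73, with edgeR adjusted p = 0.978 and 0.99999, so a change of that size was not detectable. Single libraries moved these values: the log2 fold of P1-ww714 over B73, -0.27, was -0.037 without B73 replicate 1 and -0.52 without B73 replicate 3, and that of P1-ww714/B73 over B73, -0.19, was 0.041 and -0.44 without the same libraries.

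The sum of the 3 catalase genes was 630.4 ± 56.6 CPM in P1-ww714, 649.5 ± 124.0 CPM in P1-ww714/B73 and 666.0 ± 123.1 CPM in B73 (SD, n = 3 each). Of the catalase reads, cat3 took 37.8 ± 5.90% in P1-ww714, 37.8 ± 5.71% in P1-ww714/B73 and 41.9 ± 7.70% in B73. cat1 took 28.9 ± 1.28% in P1-ww714, 27.5 ± 5.87% in P1-ww714/B73 and 25.2 ± 5.01% in B73. cat2 took 33.4 ± 6.21% in P1-ww714, 34.7 ± 0.169% in P1-ww714/B73 and 32.9 ± 2.85% in B73. These shares of reads are not corrected for gene length, and for each of the 3 genes the libraries of the genotypes overlapped. Between P1-ww714 and P1-ww714/B73, the folds of sod4a, cat1, cat2 and cat3 were 0.987, 1.04, 0.938 and 0.949, each with adjusted p = 0.99997. Across the genome edgeR called 0 genes (0%) there, 680 had an unadjusted p below 0.05, and the DESeq2 number was 27.

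No gene of a wider antioxidant list passed the test between genotypes. The list, matched by symbol, had 29 genes, with the 6 genes above left out. It held superoxide dismutases, ascorbate and glutathione enzymes, methionine sulfoxide reductases, peroxiredoxins, thioredoxins and sources or sinks of reactive oxygen. No glutathione peroxidase or monodehydroascorbate reductase was in it, though both were sought. The reference matched 18775 of 39656 identifiers, so antioxidant genes without a matched symbol are not covered. The 1-Cys peroxiredoxin PER1 (GRMZM2G129761), with 1 count in all, was too low to test. Of the 28 tested, 0 were called higher and 0 lower in any of the 3 pairs of genotypes by edgeR, beside 0.776%, 0.111% and 0% of all genes called, and DESeq2 also called 0. At these backgrounds, 0 calls in a list of this size do not set it apart. In P1-ww714 against B73, 2 had an unadjusted p under 0.05, beside 1607 of the 22544 genes tested, the lowest adjusted p was 0.321, and the median log2 fold was 0.03, beside -0.002 over all genes. In P1-ww714/B73 against B73, 0 had an unadjusted p under 0.05, beside 585 of all genes, and the median was 0.06, beside -0.001 over all genes. For P1-ww714 over P1-ww714/B73, 1 had an unadjusted p under 0.05 and the median was -0.011, beside 0.007 over all genes. Folds above 0 numbered 19 of 28 in each comparison against B73, beside 49.5% and 49.6% of all genes. In P1-ww714 over P1-ww714/B73 they numbered 13 of 28, beside 52.0%. The medians against B73 rested on single B73 libraries: without B73 replicate 1 they were 0.00057 in P1-ww714 and 0.0038 in P1-ww714/B73, and without B73 replicate 2 they were 0.12 in both. Without single libraries the third median ran from -0.034 to 0.016. In P1-ww714 against B73 the 95% interval lay wholly within a 1.5-fold change in either direction for 22 of the 28.

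Among the superoxide dismutases of the list, which leaves out the sod4 pair, none passed the test. sodC (GRMZM2G106928) averaged 236.4 ± 38.8 CPM in P1-ww714, 266.7 ± 33.5 CPM in P1-ww714/B73 and 243.3 ± 49.9 CPM in B73 (SD, n = 3 each). The cytosolic copper-zinc gene sod2 (GRMZM2G025992) averaged 151.4 ± 3.45 CPM in P1-ww714, 143.7 ± 4.17 CPM in P1-ww714/B73 and 142.2 ± 9.37 CPM in B73. Over the 5 such genes the log2 fold of P1-ww714 over B73 ran from -0.04 to 0.09. The 5 methionine sulfoxide reductase genes of the list, which leaves out MSRB5.1, ran from -0.01 to 0.40. MSRB1 (GRMZM2G025322) averaged 139.9 ± 14.0 CPM in P1-ww714, 148.9 ± 10.9 CPM in P1-ww714/B73 and 136.8 ± 16.4 CPM in B73, and MSRA4 (GRMZM2G052666) 115.8 ± 20.4, 124.0 ± 7.55 and 116.4 ± 14.1 CPM in the same genotypes (SD, n = 3 each).

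In the ascorbate and glutathione cycle, apx (GRMZM2G140667), an ascorbate peroxidase, averaged 372.4 ± 27.4 CPM in P1-ww714, 363.0 ± 31.97 CPM in P1-ww714/B73 and 346.8 ± 6.89 CPM in B73. The dehydroascorbate reductases dhar1 (GRMZM5G855672) and dhar3 (GRMZM2G035502) had log2 folds of 0.03 and 0.13 in P1-ww714 against B73, the glutathione reductase gsr1 (GRMZM2G172322) 0.03, and the glutathione synthesis genes gsh1 (GRMZM2G111579) and gsh2 (GRMZM2G155974) 0.13 and -0.23. bas1 (GRMZM2G077673) stood at 0.03. Glycolate oxidase go1 (GRMZM2G129246), a peroxisomal source of hydrogen peroxide in photorespiration, stood at 0.01, and the NADPH oxidases rbohB (GRMZM2G138152) and rbohC (GRMZM2G043435), which make superoxide at the cell surface, at -0.21 and -0.18. None of these passed the test.

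The lowest unadjusted p of the list belonged to aox3 (GRMZM2G074743), an alternative oxidase of mitochondria. It had 2.74, 2.91 and 1.97 CPM in P1-ww714, 1.53, 1.53 and 1.35 CPM in P1-ww714/B73 and 1.01, 1.76 and 0.908 CPM in B73. The log2 fold of P1-ww714 over B73 was 1.03 ± 0.31 (SE, edgeR adjusted p = 0.321), at a level of few counts. The second alternative oxidase gene, Aox (GRMZM2G125669), had a log2 fold of 0.44 ± 0.23 (SE, adjusted p = 0.801). Of the h-type thioredoxins, trh2 (GRMZM2G144653) averaged 177.5 ± 9.94 CPM in P1-ww714, 161.1 ± 12.3 CPM in P1-ww714/B73 and 145.0 ± 12.5 CPM in B73, with a log2 fold of 0.29 ± 0.11 (SE, adjusted p = 0.515), and trxh1 (GRMZM2G424053) stood at 0.09. Libraries did not overlap between P1-ww714 and B73 for 4 list genes that were higher (sod2, MSRA2, trh2 and aox3) and 2 that were lower (gsh2 and rbohB). These are 4 and 2 of 28, beside 6.86% and 6.42% of all genes.

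**Figure D3:**
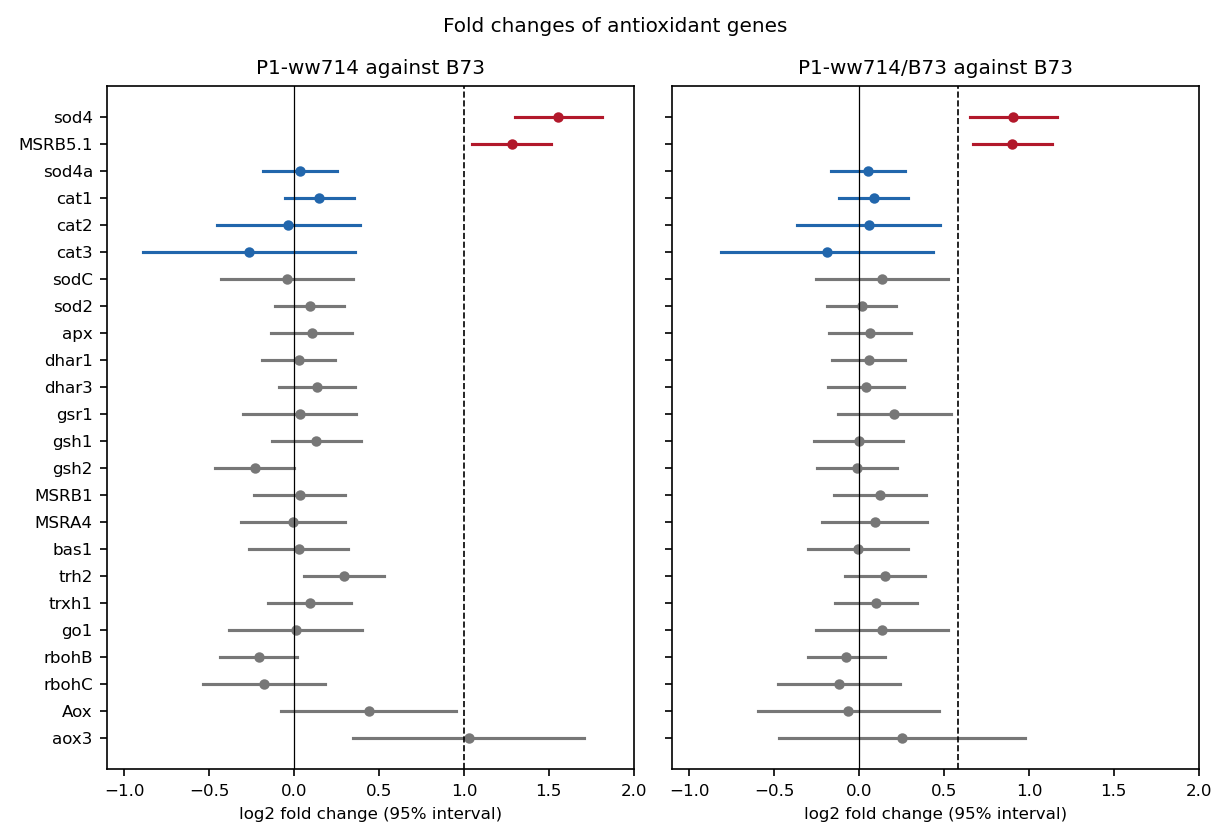
log2 fold change with 95% interval (horizontal axis) of the 6 genes and the 18 named list genes (rows), in P1-ww714 against B73 (left) and P1-ww714/B73 against B73 (right); the dashed line is the expectation from the doses of the segment (1 and 0.58). sod4 and MSRB5.1, in red, are shown as a description, with values of 1.56 and 1.28 on the left and 0.91 and 0.90 on the right, and the intervals of sod4a, cat1, cat2 and cat3, in blue, hold 0.

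In the reference order of chromosome 1, sod4 and MSRB5.1 are separated by 25 other tested genes. The segment, bounded as the run of genes with raised folds in P1-ww714 against B73, held 131 tested genes, with sod4 at position 103 and MSRB5.1 at position 129, close to its far end. Its median log2 fold was 0.94 in P1-ww714 against B73, 0.51 in P1-ww714/B73 against B73 and 0.40 for P1-ww714 over P1-ww714/B73. Folds of P1-ww714 over B73 set the bounds, which favoured a raised median, and those of sod4 and MSRB5.1 were among them. Over the 65 segment genes at positions not used for the bounds, the medians were 0.91, 0.52 and 0.41 in the same order. By fold, sod4 ranked 10 from the top in P1-ww714 against B73, 11 in P1-ww714/B73 against B73 and 14 for P1-ww714 over P1-ww714/B73. Its choice by the level in P1-ww714 relative to B73 favoured a high rank, so the ranks are a description. MSRB5.1 ranked 20, 12 and 79 in the same 3 comparisons. Genes at lower levels than sod4 filled part of the top ranks. Among the 31 segment genes with at least 0.5 times the CPM of sod4, sod4 ranked 3, 4 and 2. By the same cutoff on its own CPM, MSRB5.1 ranked 5, 5 and 28 among 55 genes. The cutoff is relative to each gene and is not a filter for few counts.

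The folds of the genes beside sod4 ranged widely. Of the 5 tested genes on each side, the log2 fold of P1-ww714 over B73 ran from -0.29 to 4.50 with a median of 0.57. Of these 10, 4 were called higher and 0 lower, beside 0.652% and 0.124% of all tested genes. Folds of some of these neighbours helped set the bounds of the segment, so the count is a description. The nearest on each side, GRMZM2G378907 and GRMZM2G000923, stood at 0.37 ± 0.09 and 0.77 ± 0.14 (SE). DVR (GRMZM2G063048), of chlorophyll synthesis and 4 genes before sod4, stood at 1.11 ± 0.16. GRMZM2G308666, 5 genes after it, stood at 4.50 ± 0.33, with raw counts of 462, 321 and 649 in P1-ww714, 189, 252 and 129 in P1-ww714/B73 and 20, 26 and 5 in B73.

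The 10 genes around MSRB5.1 had a median log2 fold of 0.56 and ran from -1.87 to 2.66. Of these, 5 were called higher and 1 lower, beside 0.652% and 0.124% of all tested genes. The 5 genes before it were all above 0, from 0.53 ± 0.10 for GRMZM2G108530 to 2.37 ± 0.24 (SE) for GRMZM2G703582. Of the 5 genes after it, GRMZM2G140915 stood at 2.66 ± 0.29 and GRMZM2G109201 at -1.87 ± 0.27 (SE), while GRMZM5G822100, GRMZM2G109221 and GRMZM2G046297 stood at -0.76, -0.30 and 0.18 and were not called. With MSRB5.1 at position 129 of 131, GRMZM2G109221, GRMZM2G109201 and GRMZM2G046297 lay beyond the segment as bounded. The median and the calls of the 10 genes thus mix genes inside and outside it, and the gene called lower was outside. Folds of some of these neighbours helped set the bounds of the segment, so their counts are a description.

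**Figure D4:**
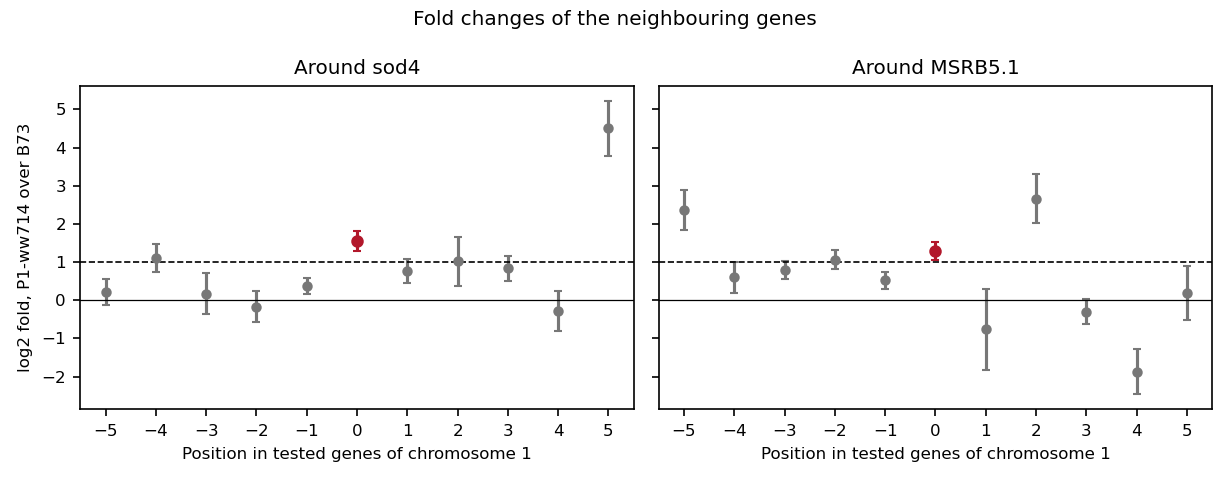
log2 fold of P1-ww714 over B73 with 95% interval (vertical axis) for sod4 (left) and MSRB5.1 (right), in red at position 0, and for the 5 tested genes on each side in the reference order (horizontal axis); the dashed line marks the dose expectation of 1. The neighbours range from -0.29 to 4.50 around sod4 and from -1.87 to 2.66 around MSRB5.1. Positions 3 to 5 after MSRB5.1 lie beyond the segment as bounded, where the dashed line does not apply.

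Over the 9 libraries, the genes with a symbol most like sod4 in log2 CPM were CaM1 (Pearson r = 0.99), MSRB5.1 (0.98), PHYB (0.97), HAK8 (0.96) and nad1 (0.96), all inside the segment. Those most like MSRB5.1 were sod4 (0.98), PHYB (0.97), CaM1 (0.96), bZIP52 (0.96) and DVR (0.95), also all inside it. These correlations are across genotypes that differ in dose, and so hold the dose itself. For sod4a and the catalases, none of the 5 closest genes lay in the segment. With 131 of the 22544 tested genes in the segment, this does not set sod4a and the catalases apart. The closest genes were Lip-syn (0.94), mdh2 (0.92), arf1 (0.91), Pgk-2 (0.91) and isp1 (0.90) for sod4a. They were gpt (0.94), CesA-4 (0.93), mfs2 (0.93), AGP2 (0.91) and opr8 (0.91) for cat1. For cat2 they were pip (0.96), PIN5a (0.91), FAD2 (0.90), psad1 (0.90) and Lsi1 (0.89). For cat3 they were DBP4 (0.96), PP2C20 (0.96), dxs2 (0.95), ocl3 (0.95) and Ann9 (0.95). Among the 6 genes, cat1 went with sod4 and MSRB5.1 at r = 0.80 and 0.82, and cat3 went against sod4a at r = -0.57. With the genotype means taken out, these were 0.17, 0.47 and -0.54, and sod4 and MSRB5.1 were at 0.74. Such a value was not particular to that pair. cat2 went with MSRB5.1 at 0.76 and with sod4 at 0.61, and sod4a went with sod4 at 0.61 and with MSRB5.1 at 0.38.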

How the data were processed

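The authors deposited raw counts per gene, 1 column per library. TopHat and HTSeq are named in the submitters' processing notes. Not given in the sources here are build, annotation, strand setting and treatment of shared reads. Gene names and order were taken from RefSeq (Zm-B73-REFERENCE-NAM-5.0), which matched 18775 of 39656 identifiers and 5 of the 6 genes, and no coordinates are given because the builds may differ.

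Counts were analysed with edgeR 4.0.16 in R 4.3.3 over all 9 libraries: filterByExpr (minimum count 10), TMM, quasi-likelihood F test, Benjamini-Hochberg adjustment over 22544 genes at 0.05. Standard errors came from fold and F value. The procedure was also run on simulated data with 200 genes changed, and no error rate for the calls here is drawn from that run. DESeq2 1.42.0 was an alternative. Patterns were compared on log2 CPM with a prior count of 2. The segment was the run of chromosome 1 genes, bounded at even positions, whose log2 folds (held between -1 and 2), each less 0.5, summed highest.

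The genes, the list and the tests were chosen with earlier results of these data known. Named were the 6 genes, 5 neighbours on each side, list genes past the threshold, the 2 highest of each list family, and the 5 most alike genes with a symbol. Other genes (MSRA2, PER1) were named after their values were seen. From the list, 4 symbol matches to other families were dropped. Coding lengths were not used here, so ratios and shares between genes, and the level cutoff for ranks in the segment, compare read counts and not levels per length.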

Additional observations from a re-analysis of the deposited data

How the results depend on the processing

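sod4 and MSRB5.1 kept positive log2 folds in every pairwise comparison under RLE size factors, DESeq2, no filter, the replicate block, TMM without chromosome 1, only the groups compared and leaving out each library. Without single libraries, sod4 ran from 1.48 to 1.65 in P1-ww714 against B73 and MSRB5.1 from 1.23 to 1.35. sod4a, the catalases and the 18 named list genes passed the threshold under none of these (lowest adjusted p 0.198), and the list had 0 calls under each. Called genes in P1-ww714 against B73 were 175, and 311 with DESeq2. In P1-ww714/B73 against B73 they were 25, then 73 with DESeq2, 0 with only the groups compared, and 6 to 20 without single libraries (20 without P1-ww714/B73 replicate 1, 6 to 14 without each of the others). For P1-ww714 over P1-ww714/B73 the number was 0, then 27 with DESeq2, and 0 to 4 without single libraries, and against the middle 0 and 2 with DESeq2. The causes were not tested.

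Same-numbered libraries did not deviate together in all pairs over all genes (correlation over 0.1 in 4 of 9 pairs, range -0.12 to 0.50). Among differently numbered libraries it was over 0.1 in 5 of 18 pairs (range -0.35 to 0.25). The numbers carry no stated batch and were not used to pair libraries in the main fit. The replicate block gave 243 and 18 calls in P1-ww714 and P1-ww714/B73 against B73. For cat3 the block narrowed the standard error in P1-ww714 against B73 to 0.14, against 0.28 without it, and the log2 fold was -0.21 (edgeR adjusted p = 0.840).

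Of 96 folds recomputed, 37 changed sign under some alternative, none of them called. Under no filter and the replicate block, gsh1 was 0.0022 and 0.0020 and bas1 0.00051 and 5.2e-05 in P1-ww714/B73 against B73. The other changes of sign came from leaving out single libraries, and the log2 folds then ran between the following values. In P1-ww714 against B73 they were sod4a -0.0157 to 0.0688, cat2 -0.23 to 0.12, sodC -0.21 to 0.0872, dhar1 -0.00605 to 0.0628, gsr1 -0.13 to 0.18, MSRB1 -0.0659 to 0.11, MSRA4 -0.16 to 0.0773, bas1 -0.0858 to 0.13, go1 -0.16 to 0.16. In P1-ww714/B73 against B73 they were cat2 -0.0824 to 0.20, cat3 -0.44 to 0.0414, sodC -0.0306 to 0.24, sod2 -0.0413 to 0.0489, apx -0.00497 to 0.12, gsh1 -0.12 to 0.0778, gsh2 -0.0744 to 0.0409, MSRA4 -0.000665 to 0.18, bas1 -0.10 to 0.0969, Aox -0.17 to 0.0763. In P1-ww714 over P1-ww714/B73 they were sod4a -0.0563 to 0.00375, cat2 -0.29 to 0.0637, cat3 -0.31 to 0.15, apx -0.0183 to 0.11, dhar1 -0.0593 to 0.0184, bas1 -0.0803 to 0.12, trxh1 -0.0821 to 0.0281, rbohC -0.18 to 0.0849. In P1-ww714/B73 against the middle they were cat1 -0.00612 to 0.0456, cat2 -0.0649 to 0.21, cat3 -0.28 to 0.17, apx -0.0561 to 0.0693, dhar1 -0.00464 to 0.0715, dhar3 -0.0634 to 0.00886, bas1 -0.0828 to 0.0374, trh2 -0.0568 to 0.05004, rbohB -0.0530 to 0.0764, rbohC -0.17 to 0.0882. With 3 libraries a genotype, folds of the size seen for cat2 and cat3 could not be told from 0.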
